A study of Mus musculus with 15 samples.

Results

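Messenger RNA levels of 36 ribosome biogenesis factors were followed through 15 RNA-seq libraries of mouse hematopoietic progenitors. The genes were taken by symbol from a fixed list, which was chosen with earlier results of these data known. All 36 were found among the 55359 genes of the tables, and all 36 passed the filter on low counts (14548 genes did). The cells were progenitors from fetal liver that a conditional Hoxb8 construct keeps dividing in medium with estradiol, as 1 line per Ddx41 genotype. Ddx41 encodes a DEAD-box RNA helicase that is mutated in myeloid neoplasms.

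The Ddx41+/- line carried a retrovirus with DDX41 (Het DDX41), DDX41 with the G173R substitution (Het G173R), DDX41 with the R525H substitution (Het R525H) or no insert (Het empty), and the Ddx41+/+ line carried the virus without insert (WT empty). All 5 groups of 3 libraries therefore share the Hoxb8 construct, estradiol, infection, 2 days of culture and a sort for the GFP of the virus. With 1 line per genotype, a Ddx41 allele's loss and any other feature of a line cannot be told apart. The labels give neither the promoter that drives the insert nor an age of the embryos. They do not say that the 3 samples of a group were separate cultures, so p-values below refer to sample-to-sample spread that may be only technical. Nor do they say what the replicate numbers 1 to 3 mark. For 12 samples the file name and the title point to different groups, and the title was followed here.

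Ribosomes are built in the nucleolus, where RNA polymerase I transcribes the precursor of the ribosomal RNAs and a sequence of assembly factors folds, modifies and cuts it. Box C/D particles place methyl groups on ribose and box H/ACA particles convert uridines to pseudouridines; the small subunit processome shapes the precursor of the small subunit, and a separate set of factors matures the large one. Growth control of these genes, by MYC among others, is textbook knowledge in dividing cells, and inherited defects in several of them cause marrow failure.

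Promoter sequences show how the genes differ near their starts in letters that are known to bind such regulators. RefSeq (GRCm38.p6) gave the 250 bases before to 50 bases after the start for 30 of the 36 genes. The E-box CACGTG, the site that MYC and its partner MAX bind, reads the same on both strands and lay in 7 of 30 windows (23.3%), against 8.09% of the windows of all 27025 genes. The ETS-type motif CCGGAAG, searched on both strands, lay in 9 of 30 (30%), against 9.93% of all genes; the letters of these motifs cannot overlap each other. The 27025 genes include many too low to be tested here, and no share among expressed genes was taken. The higher shares are therefore not shown to be particular to these factors. A match is a description of the letters and not evidence of a bound factor. The windows of 3 genes are printed 5′ to 3′ on the strand of the gene, all of which run on the minus strand, because they belong to the member with the smallest p between libraries numbered 3 and the others (Noc3l), to an E-box holder with a similarly large difference (Utp20) and to a member without a call (Nop14). They lie at chr19:38819188-38819487 (Noc3l), chr10:88826765-88827064 (Utp20) and chr5:34660099-34660398 (Nop14). Capitals mark the ETS-type motif, read on the other strand, in Noc3l and the E-box in Utp20; neither motif occurs in the Nop14 window.
Noc3l: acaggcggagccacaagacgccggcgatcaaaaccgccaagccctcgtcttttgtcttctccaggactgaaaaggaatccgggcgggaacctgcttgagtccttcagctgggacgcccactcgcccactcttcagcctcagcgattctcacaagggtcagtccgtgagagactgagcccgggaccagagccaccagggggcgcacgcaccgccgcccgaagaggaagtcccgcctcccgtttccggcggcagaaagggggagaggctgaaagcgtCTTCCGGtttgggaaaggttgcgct
Utp20: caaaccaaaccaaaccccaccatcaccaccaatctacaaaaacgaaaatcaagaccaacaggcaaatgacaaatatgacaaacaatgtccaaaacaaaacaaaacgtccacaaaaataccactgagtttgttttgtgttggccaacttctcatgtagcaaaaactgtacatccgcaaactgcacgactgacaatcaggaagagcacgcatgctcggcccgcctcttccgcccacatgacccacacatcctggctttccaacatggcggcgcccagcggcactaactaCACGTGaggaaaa
Nop14: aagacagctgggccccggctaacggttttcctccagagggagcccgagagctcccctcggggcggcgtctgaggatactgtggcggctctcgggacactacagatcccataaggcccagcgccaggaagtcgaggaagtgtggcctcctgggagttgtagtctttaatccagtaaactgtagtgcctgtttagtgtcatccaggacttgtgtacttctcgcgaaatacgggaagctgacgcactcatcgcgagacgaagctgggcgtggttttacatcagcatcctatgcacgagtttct

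Libraries held between 22104066 and 49145873 expected counts, and mitochondrial genes took 2.158% to 2.987% of them. Ddx41 itself, in CPM (counts scaled to a common total, here after TMM correction), averaged 33.1 ± 3.11 in Het DDX41, 33.3 ± 4.86 in Het G173R, 32.1 ± 2.81 in Het R525H, 30.3 ± 2.34 in Het empty and 59.3 ± 3.94 in WT empty (SD, n = 3 each). Het empty was lower than WT empty (log2 -0.97, SE 0.115, edgeR adjusted p = 0.000138). The inserts were not seen in the Ddx41 counts: the log2 difference from Het empty was 0.13 in Het DDX41, 0.13 in Het G173R and 0.08 in Het R525H (edgeR adjusted p = 1 for each). Whether reads from an insert count towards Ddx41 is not given in the sources used here, so these values do not check the vectors. All 9 progenitor markers passed the filter, with a summed level of 3023 to 3913 CPM and the cytokine receptor gene Kit at 435 to 576 CPM in single libraries. Defining genes of hepatocytes (Alb), fibroblasts (Col1a1), tissue macrophages (C1qa), natural killer cells (Ncr1) and red cells (Hba-a1) had 0 counts in every library. The 36 genes took 0.7365% to 0.9849% of a library's counts. Libraries Het DDX41 3 and Het G173R 3 stood apart: the median member lay at 100.2 and 92.99 CPM in them, against 121.5 to 163.7 CPM in the other 13. For 31 of the 36 genes these were the 2 lowest of all 15 libraries. Leaving them out was a choice made after seeing the data.

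On the authors' TPM scale, which corrects for transcript length, the factors were highly expressed. Their median over 15 libraries was 62.7 TPM, against 7.9 TPM for all genes tested. Npm1, nucleophosmin, a chaperone of the granular nucleolus, stood first with a mean of 2000 TPM and single libraries between 1800 and 2380. It has many processed pseudogenes, so its reads may be divided between copies. The box C/D scaffold proteins Nop56 (309 TPM) and Nop58 (239 TPM) and nucleolin, Ncl (212 TPM), followed, then Nolc1 (176 TPM), which shuttles snoRNA particles, and the methyltransferase fibrillarin, Fbl (141 TPM).

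Catalytic and structural proteins of the snoRNA particles thus lay above most assembly factors. The 4 box H/ACA proteins had means of 137 (Nop10), 118 (Nhp2), 102 (Dkc1, the pseudouridine synthase dyskerin) and 100 TPM (Gar1). The large subunit of RNA polymerase I, Polr1a, averaged 31.7 TPM and its partner Polr1b 33 TPM, alike in level to Tcof1 (32.8 TPM), the nucleolar protein treacle. Among factors of the large subunit the order ran from Wdr74 (114 TPM), Noc2l (86.4 TPM) and Nop2 (76.8 TPM), an rRNA methyltransferase, down to Noc3l (14.5 TPM). Bysl, needed late in small subunit assembly, was lowest of all with a mean of 11.9 TPM and single libraries between 8.2 and 14. Neighbours in this order, such as Polr1b, Tcof1 and Polr1a with ranges of 22.6 to 43, 22 to 38.9 and 23.6 to 40.4 TPM, did not separate beyond their spread over libraries.

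**Figure D1:**
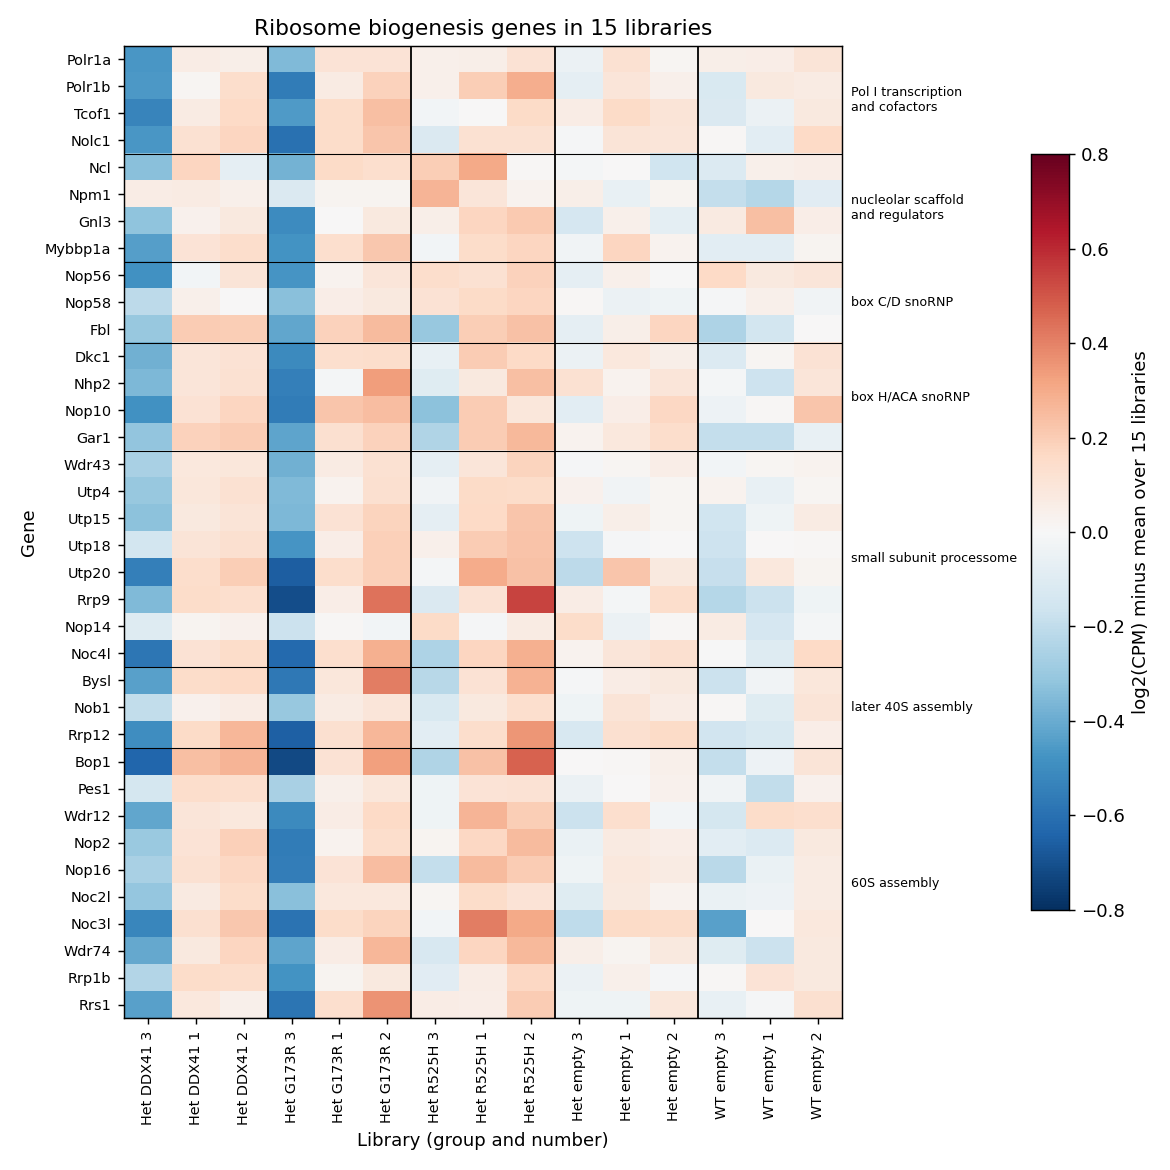
Each cell is the log2 CPM of 1 gene in 1 library minus the gene's mean over 15 libraries, with genes grouped by role down the page and libraries by group across it. Columns Het DDX41 3 and Het G173R 3 are blue for nearly every gene, while the rows of Npm1 and Nop14 stay pale.

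Libraries numbered 1 and 2 differed little in these genes. Over those 10 libraries, the median coefficient of variation (SD over mean of CPM) of the 36 genes was 6.24%, against 10.9% for all genes tested. It ran from 2.63% for Polr1a to 11.3% for Bop1 and 15.6% for Rrp9, a U3 snoRNA-binding protein. Over all 15 libraries the median was 13.5%, against 14.8% for all genes. The 36 genes lay at higher levels than all genes tested (median 62.7 against 7.9 TPM). These comparisons of variation do not allow for level. Het G173R 3 was the lowest of 15 libraries for 32 genes, Het DDX41 3 for 3 and WT empty 1 for 1 (Npm1). Median member levels in numbers 3, 1 and 2 were 100.2, 156.8 and 157.3 CPM in Het DDX41, 92.99, 150 and 163.7 in Het G173R, and 121.5, 152.3 and 162.5 in Het R525H. They were 134.6, 138.9 and 143.4 CPM in Het empty and 126.5, 134.2 and 148.6 in WT empty. In all 5 groups number 3 held the lowest of these medians, by a wide margin in the first 2 groups and a narrow one in the groups with empty vector.

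**Figure D2:**
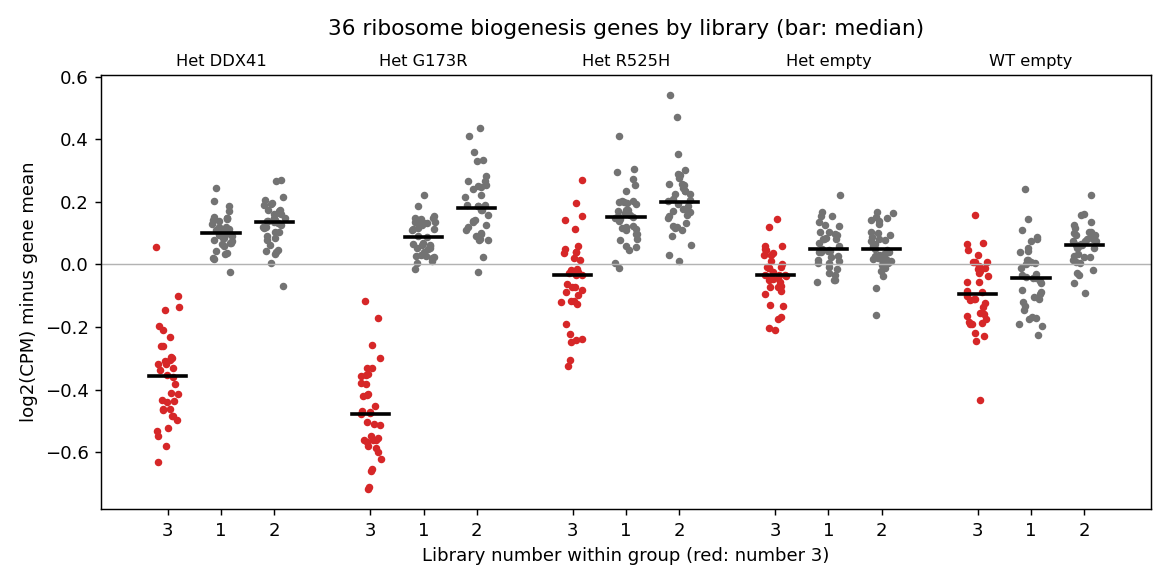
Points are the 36 genes in each library, as log2 CPM minus the gene's mean over 15 libraries, with libraries numbered 3 in red and the median as a bar. The red clouds of Het DDX41 and Het G173R lie almost wholly below 0, and those of Het empty and WT empty overlap their neighbours.

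The libraries numbered 3 were compared with numbers 1 and 2 in a model with group and number as terms. The factors were lower in number 3 almost throughout: 32 of 36 fell and 0 rose, with a median log2 difference of -0.30 (range -0.53 to 0.03). Among all genes tested 25% fell and 21.1% rose, with a median of 0, so a wide change in expression separates these libraries. In 7 of the 36 genes all 5 libraries numbered 3 lay below all 10 others, as they did in 6.63% of all genes; 0 of the 36 and 4.47% of all genes lay wholly higher. Negative values were found for 34 of 36, and 49.5% of all genes were positive. At an unadjusted p under 0.05 it was 34 of 36, against 53.4% of all genes; 46.1% of all genes were called in either direction. The split into number 3 against the rest was chosen with earlier results of these data known, and in bulk samples fewer cells of a type and less RNA per cell cannot be told apart.

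The difference was uneven between groups. Within Het DDX41, number 3 minus the mean of 1 and 2 had a median of -0.50 over the 36 genes, and within Het G173R -0.63, with 35 and 36 genes lower. It was -0.22 in Het R525H (33 lower), -0.09 in Het empty (30 lower) and -0.09 in WT empty (30 lower), and these values, each from 1 library against 2, carry no test. Without Het DDX41 3 and Het G173R 3, 10 genes fell and 1 rose, with a median of -0.09; of all genes 9.2% were called lower and 12.8% higher. Polr1b, Fbl, Dkc1, Nop10, Utp18, Utp20, Rrp12, Wdr12, Nop16 and Noc3l were the 10, and Nop14 was the 1 that rose (log2 0.18, edgeR adjusted p = 0.0074). By role, 1 of 4 genes of polymerase I transcription, 0 of 4 scaffold proteins, 1 of 3 box C/D and 2 of 4 box H/ACA proteins fell in that fit. So did 2 of 8 genes of the processome, 1 of 3 later factors of the small subunit and 3 of 10 of the large subunit. In the groups with empty vector alone 6 fell and 0 rose, and of all genes 6.35% were called lower and 7.59% higher.

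**Figure D3:**
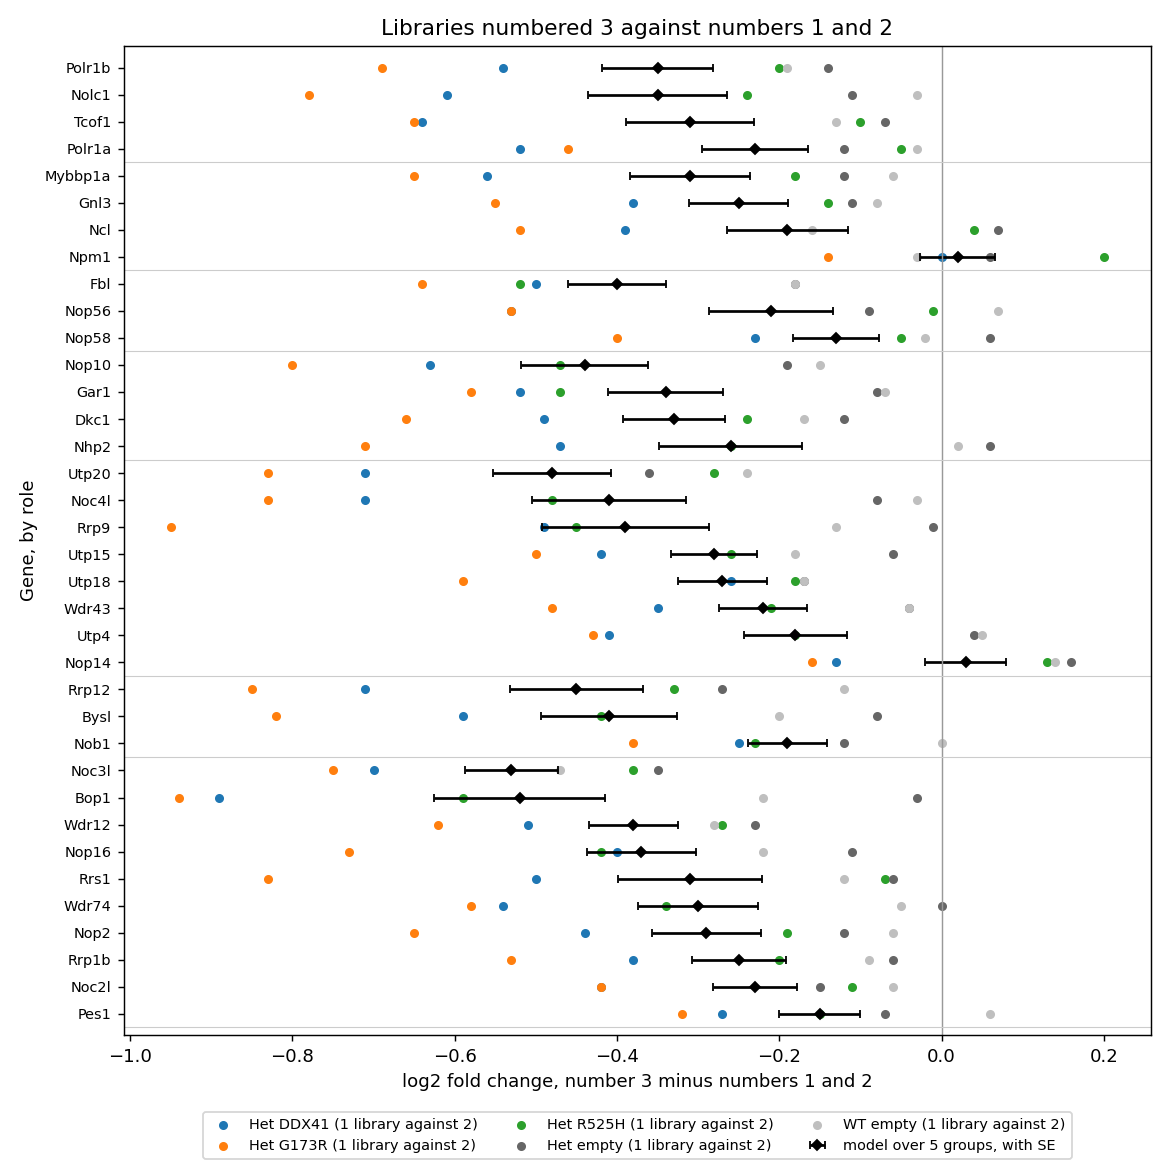
Coloured points give, for each gene and group, the log2 CPM of number 3 minus the mean of numbers 1 and 2; black diamonds with bars give the model estimate over 5 groups with its SE. Het G173R and Het DDX41 points lie farthest left in most rows, and only Npm1 and Nop14 have estimates above 0 (0.02 and 0.03).

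All 4 genes of RNA polymerase I transcription fell. Polr1b, the second subunit of the enzyme, had 86.1, 80.4, 122, 113 and 109 CPM in number 3 of Het DDX41, Het G173R, Het R525H, Het empty and WT empty. In numbers 1 and 2 it ranged from 120 to 145 CPM with a median of 126. Only Het R525H 3 reached the range of the other libraries (log2 -0.35, SE 0.068, edgeR adjusted p = 0.000933). Nolc1 (-0.35), Tcof1 (-0.31) and Polr1a (-0.23) fell as well.

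Of the 4 nucleolar scaffold proteins and regulators 2 fell, Mybbp1a, a nucleolar corepressor (-0.31), and the GTPase nucleostemin, Gnl3 (-0.25). Ncl had a log2 difference of -0.19 (edgeR adjusted p = 0.0534). Npm1 had 2760, 2450, 3200, 2740 and 2330 CPM in number 3, in the same order of groups, against 2270 to 2840 CPM with a median of 2700 in numbers 1 and 2. The 2 sets overlap widely, and its log2 difference was 0.02 (SE 0.046, edgeR adjusted p = 0.73).

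Among the box C/D proteins Fbl, the methyltransferase, had 121, 112, 121, 142 and 126 CPM in number 3, against 135 to 178 CPM with a median of 171 in numbers 1 and 2. Only Het empty 3 reached the range of the other libraries (log2 -0.40, SE 0.06, edgeR adjusted p = 0.000127). Its scaffold partner Nop56 fell by 0.21 on the log2 scale, while Nop58 had -0.13 (edgeR adjusted p = 0.0657). All 4 box H/ACA proteins fell, Nop10 by 0.44, Gar1 by 0.34, Dkc1 by 0.33 and Nhp2 by 0.26 on the log2 scale. Nop10, the smallest of them, had 93.1, 88.3, 104, 123 and 127 CPM in number 3, against 131 to 155 CPM with a median of 146. Dkc1 had 164, 150, 205, 207 and 198 CPM in number 3, against 216 to 246 CPM with a median of 232. Neither gene had a library of number 3 within the range of the others (edgeR adjusted p = 0.000462 and 0.000783).

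In the small subunit processome 7 of 8 genes fell. Utp20, a very large scaffold protein, had 132, 122, 191, 167 and 170 CPM in number 3, against 196 to 237 CPM with a median of 217 (log2 -0.48, SE 0.073, edgeR adjusted p = 0.000149). Utp15, which joins polymerase I transcription to processing, had 68.7, 67.5, 82.2, 84.5 and 77.4 CPM, against 84.5 to 101 CPM with a median of 92.1. Every number 3 library of Utp20 lay below all others, and so did those of Utp15, where Het empty 3 came within rounding of the lowest. Utp18 had 55.5, 44.3, 63, 54.6 and 54.7 CPM, against 61 to 71.7 CPM with a median of 64.7 (log2 -0.27, SE 0.055, edgeR adjusted p = 0.0012). Noc4l (-0.41), Rrp9 (-0.39), Wdr43 (-0.22) and Utp4 (-0.18) fell too. Nop14, the partner of the yeast Noc4 protein, had 68.6, 65.4, 81.9, 81.5 and 77 CPM in number 3, against 67.1 to 76.9 CPM with a median of 73.6. Its libraries with R525H and empty vector were the highest of all, and its log2 difference was 0.03 (SE 0.05, edgeR adjusted p = 0.654).

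The 3 later factors of the small subunit fell. Rrp12, an export factor, had 76.5, 68.6, 102, 98.7 and 97 CPM in number 3, against 99.4 to 138 CPM with a median of 120 (log2 -0.45, SE 0.082, edgeR adjusted p = 0.000572). Bysl had 35.5, 32.3, 41.1, 47.6 and 42.5 CPM, against 46.9 to 63.7 CPM with a median of 51.5 (log2 -0.41, SE 0.084, edgeR adjusted p = 0.00115). In each, 4 of the 5 libraries lay under the lowest of the others; Het R525H 3 was the exception for Rrp12 and Het empty 3 for Bysl. Nob1, the nuclease that makes the end of the small rRNA, fell by 0.19 on the log2 scale.

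All 10 factors of the large subunit fell. Noc3l, whose yeast form escorts the precursor particle out of the nucleolus, had 41.5, 39.7, 58.9, 51.8 and 44.2 CPM in number 3, against 59.7 to 79.3 CPM with a median of 66.2. Every number 3 library lay below every other, and it had the smallest p of the 36 (log2 -0.53, SE 0.057, edgeR adjusted p = 8.4e-06). Wdr12, of the complex with Bop1 and Pes1, had 80.7, 75.5, 105, 95.3 and 97.7 CPM, against 106 to 130 CPM with a median of 118 (log2 -0.38, SE 0.055). Nop16 had 67.5, 55.1, 70.9, 79.1 and 69.6 CPM, against 78 to 96.5 CPM with a median of 87.8 (log2 -0.37, SE 0.067). Wdr12 did not overlap, and Nop16 overlapped through Het empty 3. The 3 proteins of the Wdr12 complex differed in size, with Bop1 at -0.52 and Pes1 at -0.15. The others were Rrs1 (-0.31), Wdr74 (-0.30), Nop2 (-0.29), Rrp1b (-0.25) and Noc2l (-0.23). Members with an E-box had a median of -0.27 (7 of 7 lower) and those without one -0.30 (20 of 23 lower); with the ETS-type motif it was -0.29 (9 of 9) and without it -0.28 (18 of 21).

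Numbers 2 and 1 were compared in the same model, with values in the order Het DDX41, Het G173R, Het R525H, Het empty and WT empty. Of the 36 genes 0 were called with edgeR, as were 0% of all genes; 0 had an unadjusted p under 0.05, against 10.9% of all genes. The median was 0.05, with 30 positive, against 54.3% of all genes. Rrp9 had 52.3, 64.4, 69.4, 52.6 and 46.5 CPM in number 2, against 52.7, 49.4, 51.5, 47.1 and 42.3 CPM in number 1 (log2 0.22). Nhp2 had 112, 130, 122, 110 and 110 CPM in number 2, against 110, 102, 109, 105 and 91.7 CPM in number 1 (log2 0.18). Nhp2 was the 1 gene whose number 2 libraries all lay above those of number 1, as in 0.605% of all genes; 0 lay wholly lower, against 0.997%. Ncl had 864, 996, 914, 811 and 941 CPM in number 2, against 1020, 1010, 1120, 909 and 932 CPM in number 1 (log2 -0.14). Wdr74 had 120, 128, 127, 112 and 112 CPM in number 2, against 112, 111, 120, 108 and 94.2 CPM in number 1 (log2 0.14). Ncl was the lower one in number 2 and Wdr74 the higher, both with overlap. Rrp12 had 130, 130, 138, 120 and 112 CPM in number 2, against 120, 118, 119, 118 and 99.4 CPM in number 1 (log2 0.13). Bysl had 53.6, 63.7, 58.1, 50.6 and 51 CPM in number 2, against 53.1, 51, 52, 49.9 and 46.9 CPM in number 1 (log2 0.13). These late small subunit factors overlapped as well. The smallest edgeR adjusted p of the 36 was 0.49 (Rrp9).

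The wider pathway also leaned lower. Of 128 other ribosome biogenesis genes 87 fell and 7 rose (median -0.20), and without Het DDX41 3 and Het G173R 3, 29 fell and 7 rose (median -0.06). Of all genes 25% fell and 21.1% rose, and without those 2 libraries 9.2% fell and 12.8% rose. Ubtf, the factor that holds ribosomal DNA open for polymerase I, averaged 164 ± 24.2 CPM in number 3 (SD, n = 5) and 242 ± 8.17 CPM in numbers 1 and 2 (n = 10). It fell by 0.56 on the log2 scale (edgeR adjusted p = 1.97e-05), and by 0.37 without those 2 libraries. Also lower were Urb1 (-0.52), the AAA ATPase Mdn1 (-0.45), the methyltransferases Rrp8 (-0.44) and Bud23 (-0.43), the acetyltransferase Nat10 (-0.42), Las1l (-0.42) and Utp6 (-0.34). These 7 were called without the 2 libraries too, at smaller values of -0.32 (Urb1), -0.27 (Mdn1), -0.28 (Rrp8), -0.27 (Bud23), -0.23 (Nat10), -0.26 (Las1l) and -0.20 (Utp6). Among assembly factors of the snoRNA particles, Ruvbl1 fell by 0.34, Snu13 by 0.29, Znhit6 by 0.29 and Naf1 by 0.17 on the log2 scale, 4 of 9 tested. None of the 9 was called without Het DDX41 3 and Het G173R 3: Ruvbl1 and Snu13 had -0.11, Znhit6 -0.12 and Naf1 -0.08 (edgeR adjusted p = 0.0888, 0.181, 0.274 and 0.238). Riok3, a kinase on small subunit precursors, rose by 0.28, Mphosph6, a helper of the exosome, by 0.25, and Taf1b, of the polymerase I selectivity factor, by 0.23. Of 80 cytosolic ribosomal protein genes 6 rose and 0 fell (median 0.03); these too have near-identical copies. Of 14 snoRNA host genes 5 fell, among them Snhg4 (-0.40), Snhg5 (-0.29) and Snhg3 (-0.26), and 1 rose. Without those 2 libraries 0 of the 14 fell and 0 rose (median 0.03), with Snhg4 at -0.31, Snhg5 at -0.13 and Snhg3 at -0.13 (edgeR adjusted p = 0.0627, 0.288 and 0.349).

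Other gene groups were compared between the numbers too, beside 25% of all genes that fell and 21.1% that rose. Myc had 204, 203, 188, 294 and 230 CPM in number 3 of Het DDX41, Het G173R, Het R525H, Het empty and WT empty, against 233 to 350 CPM in numbers 1 and 2 (log2 -0.32, SE 0.083, edgeR adjusted p = 0.00668). Without Het DDX41 3 and Het G173R 3 it had -0.14 (edgeR adjusted p = 0.3). Of 12 genes of the MYC network 5 rose, led by the MYC antagonist Mxd1 (0.61), and 2 fell; without the 2 libraries 2 rose and 0 fell. Of 10 genes listed for the 5S particle and p53 checkpoint, 7 rose and 1 fell. The cell cycle inhibitor Cdkn1a averaged 101 ± 11.2 CPM in number 3 and 54.6 ± 7.07 CPM in numbers 1 and 2 (log2 0.90), and Mdm2 rose by 0.73. Trp53 itself fell by 0.33 on the log2 scale, a call that was lost without the 2 libraries (-0.20, edgeR adjusted p = 0.0575). All 15 glycolysis genes rose (Pgk1 0.72, Pfkl 0.64), with a sum of 20460 to 27770 CPM in number 3 and 13910 to 21540 CPM in numbers 1 and 2. Without those 2 libraries, 6 of the checkpoint genes and 14 of the glycolysis genes rose. In that fit 12.8% of all genes rose and 9.2% fell. The 5S particle genes Rpl5 (0.1) and Rpl11 (0.09) were not called in it (edgeR adjusted p = 0.16 and 0.223). The part of these groups in the lower biogenesis factors was not tested.

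**Figure D4:**
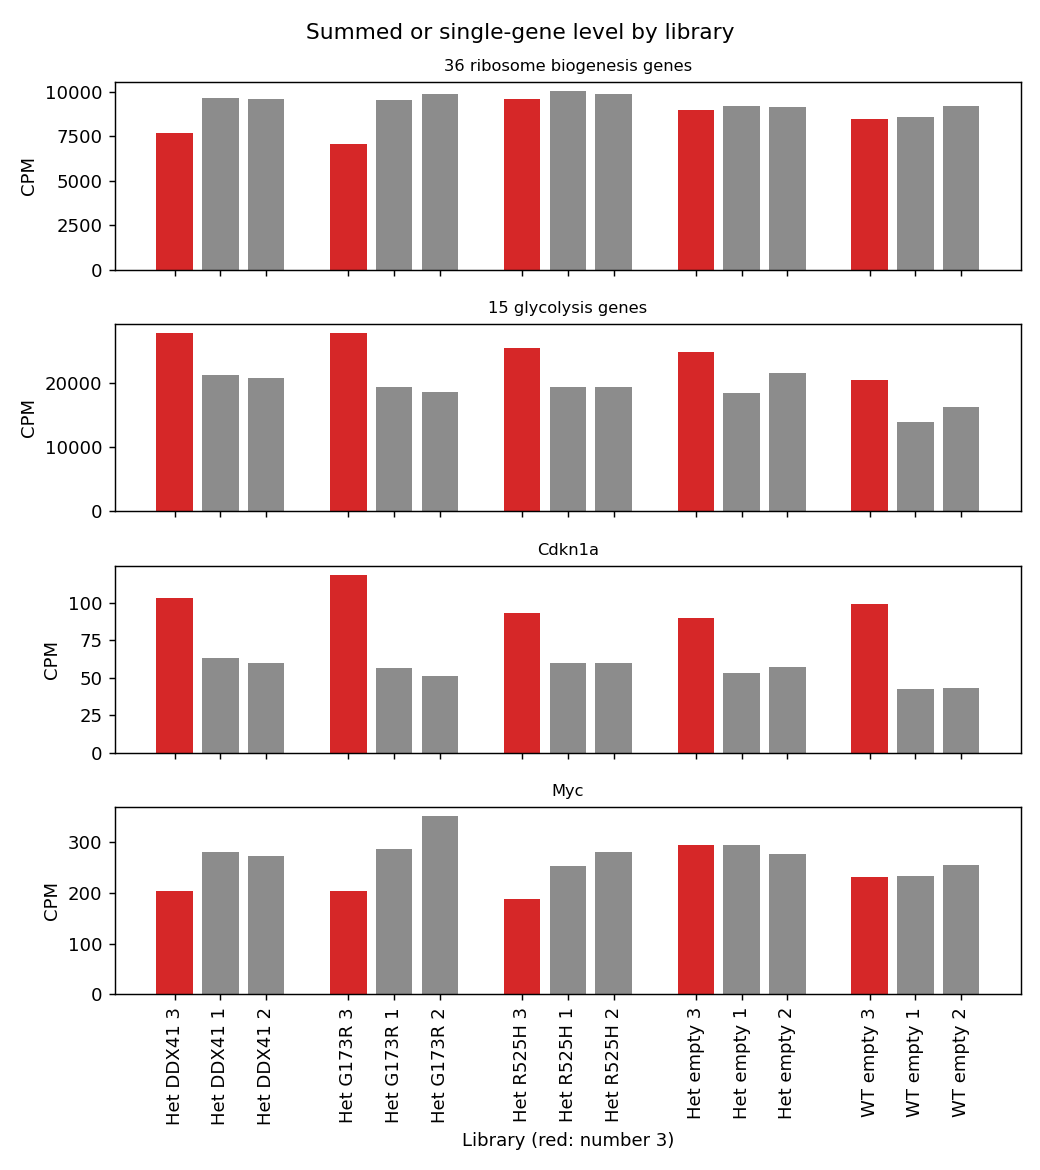
Bars give the summed CPM of the 36 genes and of 15 glycolysis genes, and the CPM of Cdkn1a and Myc, in each library, with number 3 in red. Cdkn1a is at 90.3 to 119 CPM in all 5 red bars and at 42.6 to 63.2 CPM in the grey ones. The summed biogenesis level is clearly low only in Het DDX41 3 (7702 CPM) and Het G173R 3 (7099 CPM). Npm1 weighs heavily in this sum, with 3200 of 9590 CPM in Het R525H 3. The median member of that library was at 121.5 CPM, against 152.3 and 162.5 CPM in Het R525H 1 and 2.

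Cell type markers were compared between the numbers as well, with sums for libraries numbered 3 against those numbered 1 and 2. In this comparison 25% of all genes were called lower and 21.1% higher. The mast cell and erythroid counts below lie near these shares. Of 9 progenitor markers 6 fell and 1 rose in number 3 (sum 3023 to 3519 CPM, against 3427 to 3913), Myb by 0.33 and Cebpa by 0.48 on the log2 scale. Of 10 neutrophil markers 5 fell and 2 rose (sum 704.4 to 1046 CPM, against 1290 to 2235), with the granule genes Elane and Mpo lower by 1.62 and 1.12 on the log2 scale. Lymphoid markers rose in 4 of 5 tested (sum 13.61 to 44.91 CPM, against 10.91 to 36.68), mast cell markers fell in 2 of 6 (22.33 to 59.55 CPM, against 20.95 to 115.7), and monocyte markers rose in 2 and fell in 1 of 5 (201.2 to 386.7 CPM, against 163 to 300.8). Of 6 erythroid markers 1 rose (913.5 to 990.6 CPM, against 899.1 to 1012), and both tested fetal liver markers, Afp and Pecam1, rose (12.86 to 22.26 CPM, against 6.762 to 17.33), with Alb, Ttr, Col1a1 and Cdh5 at 0 in every library. Without Het DDX41 3 and Het G173R 3, 9.2% of all genes were called lower and 12.8% higher. Progenitor markers then fell in 3 of 9 and rose in 0, and lymphoid markers rose in 1 of 5. Neutrophil markers fell in 5 and rose in 1 of 10, the 1 being the granule gene Ltf (log2 2.17, edgeR adjusted p = 0.0165). Mast cell markers then fell in 1 of 6, monocyte markers rose in 1 and fell in 1 of 5, and erythroid (1 of 6) and fetal liver markers (2 of 2) rose. Their part in the result was not tested.

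Between the groups the study compared, no factor was called. Each of 7 comparisons gave 0 of 36 genes at an adjusted p under 0.05, with edgeR, DESeq2 or the replicate block. Shares of all genes are given below for edgeR and the replicate block, and not for DESeq2. Intervals were taken from the fit with group as its only term, where the shift of number 3 counts as spread. The 95% intervals of the log2 differences reached 0.365 to either side of the estimate in the median gene, from 0.15 for Npm1 to 0.57 for Bop1. Calls rest on an adjusted p, so differences of this size or larger could be missed. The bounds over all 36 genes and 7 comparisons ran from -0.78 to 0.75. Comparisons that share a group, Het empty in 4 of them, are not independent of each other. Without the 5 libraries numbered 3, the genes of 36 at an unadjusted p under 0.05 numbered 4 in Het empty minus WT empty (16.9% of all genes), 2 in Het DDX41 minus Het empty (3.99%), 1 in Het G173R minus Het empty (3.11%) and 0 in Het G173R minus Het DDX41 (4.49%). They numbered 3 in Het R525H minus Het DDX41 (7.29%) and 1 in Het G173R minus Het R525H (9.08%). The replicate block called 9.29% of all genes in Het empty minus WT empty, 0% in Het DDX41 and in Het G173R minus Het empty, 0.433% in Het R525H minus Het empty, 0.00687% in Het G173R minus Het DDX41, 0.406% in Het R525H minus Het DDX41 and 0.969% in Het G173R minus Het R525H.

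Het empty against WT empty asked what the heterozygous line does. The median log2 difference of the 36 genes was 0.05, with 26 of 36 positive, against a median of 0 and 49.8% positive for all genes; 3.66% of all genes were called (1.9% higher, 1.75% lower). Npm1 had 2550, 2690 and 2740 CPM in libraries 1 to 3 of Het empty, against 2270, 2490 and 2330 CPM in WT empty. All 3 libraries of Het empty were higher (log2 0.17, SE 0.071, edgeR adjusted p = 0.324), and Npm1 was the 1 gene of 36 with an unadjusted p under 0.05, against 11.6% of all genes. Gar1, of the box H/ACA particle, had 29, 30.2 and 28 CPM in Het empty, against 24, 26.3 and 24 CPM in WT empty (log2 0.23). Rrp9 had 47.1, 52.6 and 49.6 CPM in Het empty, against 42.3, 46.5 and 40.6 CPM in WT empty (log2 0.21). Neither overlapped, and their adjusted p were 0.784 and 0.903. Fbl had 154, 168 and 142 CPM in Het empty, against 135, 150 and 126 CPM in WT empty, with overlap (log2 0.17). Gnl3 had 203, 187 and 180 CPM in Het empty, against 233, 205 and 207 CPM in WT empty (log2 -0.18). Nop56 had 428, 415 and 396 CPM in Het empty, against 440, 444 and 464 CPM in WT empty (log2 -0.12). Gnl3 and Nop56 lay lower without overlap; in all, 3 genes lay wholly higher and 2 wholly lower, shares of 36 near the 8.33% and 8.82% of all genes. The edgeR adjusted p was 0.791 for Gnl3 and 0.909 for Nop56. Among 128 other biogenesis genes Taf1b rose (log2 0.82, edgeR adjusted p = 0.000869), with 19, 18.7 and 21.3 CPM in Het empty, against 9.81, 10.5 and 13 CPM in WT empty. It was the 1 call of the 128; the replicate block called 3, adding Ruvbl2 (log2 0.34, edgeR adjusted p = 0.0191) and Naf1 (log2 0.21, edgeR adjusted p = 0.0462). Myc was not called (log2 0.27, edgeR adjusted p = 0.73), and Mycn, its relative, fell by 0.64 on the log2 scale (edgeR adjusted p = 0.0406). Summed markers of mast cells (26.89 to 29.48 CPM in Het empty, against 59.55 to 115.7 in WT empty), monocytes (163 to 201.2, against 244.2 to 386.7) and lymphoid cells (15.19 to 20.77, against 29.31 to 44.91) were lower in every Het empty library. So were fetal liver markers (9.454 to 12.86, against 16.47 to 22.26). Neutrophil markers went the other way with overlap (1046 to 2228, against 912.1 to 1454), higher in Het empty for each library number. Sums of progenitor (3293 to 3646, against 3519 to 3913) and erythroid markers (969.1 to 998.6, against 899.1 to 1011) overlapped. Their part in the values above was not tested.

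Het DDX41 against Het empty set the line with the DDX41 insert against the same line with the empty vector. The median of the 36 genes was -0.05, with 5 positive, against 47.8% of all genes, and 0% of all genes were called; 0 of the 36 had an unadjusted p under 0.05, against 1.75% of all genes. None of the 36 lay wholly higher or wholly lower, against 3.92% and 3.33% of all genes. Polr1a had 200, 198 and 139 CPM in Het DDX41, against 209, 194 and 186 CPM in Het empty (log2 -0.13). Tcof1 averaged 148 ± 35.3 CPM in Het DDX41 (SD, n = 3), with 162 CPM in library 1 and 107 CPM in library 3, against 172, 166 and 161 CPM in Het empty (log2 -0.17). Library 3 of Het DDX41 was the low one in both, and the other 2 lay among or just above those of Het empty. Noc4l had 80.9, 82.9 and 50 CPM in Het DDX41, against 79.9, 81.9 and 76.4 CPM in Het empty (log2 -0.16). Nop56 had 409, 447 and 297 CPM in Het DDX41, against 428, 415 and 396 CPM in Het empty (log2 -0.10). Here again number 3 alone was low. Nop14 had 74.6, 75.4 and 68.6 CPM in Het DDX41, against 71.2, 74.2 and 81.5 CPM in Het empty (log2 -0.05), and Npm1 2780, 2730 and 2760 CPM, against 2550, 2690 and 2740 CPM (log2 0.05). The edgeR adjusted p was 1 for each. Without Het DDX41 3 and Het G173R 3 the median was 0.08, with 34 positive; as these libraries were left out for their low values, a shift upward follows from the choice.

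Het G173R was set against Het empty in the same way. The median was -0.06, with 3 of 36 positive, against 48.8% of all genes, 0% of all genes were called, and 0 of the 36 had an unadjusted p under 0.05, against 0.605% of all genes. None lay wholly higher or wholly lower, against 1.65% and 1.27% of all genes. Nop14 had 74.2, 72.4 and 65.4 CPM in Het G173R, against 71.2, 74.2 and 81.5 CPM in Het empty (log2 -0.10). Nop2, the rRNA methyltransferase, had 200, 216 and 133 CPM in Het G173R, against 206, 204 and 189 CPM in Het empty (log2 -0.12). Rrp1b had 138, 144 and 97.7 CPM in Het G173R, against 140, 135 and 132 CPM in Het empty (log2 -0.10). In all 3 genes number 3 of Het G173R was the lowest of the 6 libraries and the other 2 lay among or above those of Het empty. Nob1 had 82.6, 84.7 and 64.2 CPM in Het G173R, against 84.9, 82.4 and 77.2 CPM in Het empty (log2 -0.08). Nhp2 had 102, 130 and 70.4 CPM in Het G173R, against 105, 110 and 112 CPM in Het empty (log2 -0.11). Nop56 had 424, 445 and 300 CPM in Het G173R, against 428, 415 and 396 CPM in Het empty (log2 -0.08). Nhp2 spread most, its G173R libraries lying both above and below those of Het empty. The edgeR adjusted p was 1 for each. The median was 0.10, with 35 positive, once Het DDX41 3 and Het G173R 3 were left out.

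Het R525H against Het empty set the R525H form against the same empty vector. The median was 0.08, with 32 of 36 positive, against 48.3% of all genes, of which 0.0137% were called; 0 of the 36 had an unadjusted p under 0.05, against 4.98% of all genes. Without the 5 libraries numbered 3 it was 10 of 36, against 9.68% of all genes (median 0.11, 35 positive), and without Het DDX41 3 and Het G173R 3 it was 6, against 7.97%; none passed the adjusted threshold. Nop58 had 302, 306 and 294 CPM in Het R525H, against 263, 265 and 274 CPM in Het empty (log2 0.17). Ncl had 1120, 914 and 1040 CPM in Het R525H, against 909, 811 and 899 CPM in Het empty (log2 0.23). Nop56 had 453, 473 and 459 CPM in Het R525H, against 428, 415 and 396 CPM in Het empty (log2 0.16). All 3 of these nucleolar proteins lay higher in R525H without overlap. Gnl3 had 222, 228 and 204 CPM in Het R525H, against 203, 187 and 180 CPM in Het empty (log2 0.20). Utp18 had 70.6, 71.7 and 63 CPM in Het R525H, against 61, 61.5 and 54.6 CPM in Het empty (log2 0.21). These 2 did not overlap either, which made 5 of 36 wholly higher and 0 wholly lower, against 6.39% and 5.22% of all genes. Npm1 had 2840, 2710 and 3200 CPM in Het R525H, against 2550, 2690 and 2740 CPM in Het empty, with overlap (log2 0.13). The edgeR adjusted p was 1 for each of the 6. Among the 128 other biogenesis genes 0 were called, 106 were positive and 31 lay wholly higher. The median was 0.09, with 32 positive, without Het DDX41 3 and Het G173R 3.

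**Figure D5:**
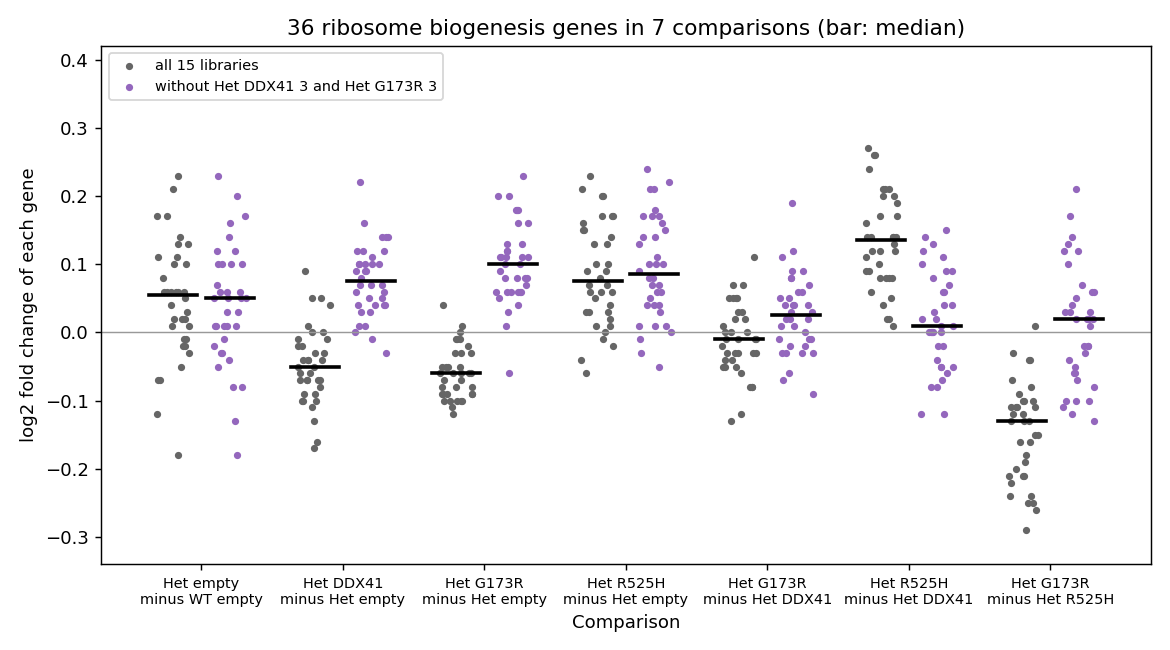
Points are the log2 fold changes of the 36 genes in each of 7 comparisons, with all 15 libraries in grey and without Het DDX41 3 and Het G173R 3 in purple, and bars are medians. In the 5 comparisons with a Het DDX41 or Het G173R group the purple points shift towards the other side of 0 or towards it, while Het empty minus WT empty and Het R525H minus Het empty stay in place.

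The vectors were then set against each other. In Het G173R against Het DDX41 the median was -0.01, with 14 of 36 positive, against 51.6% of all genes, 0% of which were called. Npm1 had 2700, 2700 and 2450 CPM in Het G173R, against 2780, 2730 and 2760 CPM in Het DDX41 (log2 -0.08). It was the 1 of 36 genes whose libraries did not overlap, lower in G173R, as were 3.4% of all genes; 2.83% of all genes and 0 of the 36 lay wholly higher. Rrp1b had 138, 144 and 97.7 CPM in Het G173R, against 151, 150 and 116 CPM in Het DDX41 (log2 -0.13). Nop2 had 200, 216 and 133 CPM in Het G173R, against 212, 224 and 160 CPM in Het DDX41 (log2 -0.12). Both carry the low number 3 library on either side. Pes1 had 198, 205 and 161 CPM in Het G173R, against 212, 211 and 175 CPM in Het DDX41 (log2 -0.08). Utp18 had 63.5, 70 and 44.3 CPM in Het G173R, against 65.9, 67 and 55.5 CPM in Het DDX41 (log2 -0.08). Rrs1, which helps to place the 5S particle in yeast, had 73.3, 85.8 and 44.7 CPM in Het G173R, against 71, 68.9 and 49.4 CPM in Het DDX41 (log2 0.11). The edgeR adjusted p was 1 for each, and 0 of the 36 had an unadjusted p under 0.05, against 1.54% of all genes. The median was 0.03, with 23 positive, without Het DDX41 3 and Het G173R 3.

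In Het R525H against Het DDX41 all 36 genes were positive, with a median of 0.13, against 51.3% of all genes, of which 0% were called. Nop58 had 302, 306 and 294 CPM in Het R525H, against 280, 273 and 235 CPM in Het DDX41 (log2 0.20). Nop56 had 453, 473 and 459 CPM in Het R525H, against 409, 447 and 297 CPM in Het DDX41 (log2 0.26). These were the 2 genes of 36 without overlap, against 5.16% of all genes that lay wholly higher; 0 lay wholly lower, against 5.51%. Ncl had 1120, 914 and 1040 CPM in Het R525H, against 1020, 864 and 718 CPM in Het DDX41 (log2 0.24). Gnl3 had 222, 228 and 204 CPM in Het R525H, against 202, 208 and 158 CPM in Het DDX41 (log2 0.20). Polr1b had 136, 145 and 122 CPM in Het R525H, against 120, 131 and 86.1 CPM in Het DDX41 (log2 0.26). All 3 overlapped, with Het DDX41 3 the lowest of the 6 libraries. Polr1a had 198, 208 and 197 CPM in Het R525H, against 200, 198 and 139 CPM in Het DDX41 (log2 0.17), where numbers 1 and 2 were alike. The edgeR adjusted p was 1 for each, and 0 of the 36 had an unadjusted p under 0.05, against 3.99% of all genes. Leaving out Het DDX41 3 and Het G173R 3 gave a median of 0.01, with 22 positive.

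In Het G173R against Het R525H 35 of the 36 were negative, with a median of -0.13 (1 positive, against 51.6% of all genes), and 0.0825% of all genes were called (0.055% higher, 0.0275% lower). Npm1 had 2700, 2700 and 2450 CPM in Het G173R, against 2840, 2710 and 3200 CPM in Het R525H. It lay lower without overlap (log2 -0.16, SE 0.071, edgeR adjusted p = 0.751), the 1 gene of 36 with an unadjusted p under 0.05, against 6.39% of all genes. Nop58 had 282, 287 and 216 CPM in Het G173R, against 302, 306 and 294 CPM in Het R525H (log2 -0.20). Nop56 had 424, 445 and 300 CPM in Het G173R, against 453, 473 and 459 CPM in Het R525H (log2 -0.24). These box C/D partners were wholly lower as well, making 3 of 36, against 5.84% of all genes; 0 lay wholly higher, against 5.28%. Gnl3 had 198, 208 and 139 CPM in Het G173R, against 222, 228 and 204 CPM in Het R525H (log2 -0.26). Nop2 had 200, 216 and 133 CPM in Het G173R, against 220, 234 and 199 CPM in Het R525H (log2 -0.25). Nop14 had 74.2, 72.4 and 65.4 CPM in Het G173R, against 73.1, 76.9 and 81.9 CPM in Het R525H (log2 -0.13). These 3 overlapped. The smallest edgeR adjusted p of the 36 was 0.751. The median was 0.02, with 20 positive, without Het DDX41 3 and Het G173R 3. Of the 128 other biogenesis genes 0 were called, and 3 were lower with the replicate block, Exosc9 (edgeR adjusted p = 0.0272), Nvl (0.0409) and Tsr1 (0.0499). Of 14 snoRNA host genes 1 was called, Snhg1, with 217, 195 and 184 CPM in Het G173R, against 334, 343 and 355 CPM in Het R525H (log2 -0.79, edgeR adjusted p = 0.0215). It carries snoRNAs of the box C/D class in its introns.

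An F test for any difference among the 5 groups called 0 of the 36 genes, against 3.7% of all genes. With DESeq2 the likelihood ratio test called Npm1 (adjusted p = 0.00718, 7.93% of all genes called), and with the replicate block Noc3l (edgeR adjusted p = 0.0467, 12.1% of all genes called). Npm1 averaged 2760 ± 25.8 CPM in Het DDX41, 2620 ± 143 in Het G173R, 2920 ± 252 in Het R525H, 2660 ± 95.5 in Het empty and 2360 ± 116 in WT empty (SD, n = 3 each). Noc3l averaged 58.7 ± 15.1, 57.7 ± 15.6, 70.6 ± 10.5, 61.4 ± 8.35 and 55.7 ± 10.1 CPM in the same order. WT empty was lowest and Het R525H highest in both genes.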

How the data were processed

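RNA was sequenced from 15 samples, 3 in each of 5 groups, from libraries of total RNA depleted of rRNA, per the labels' protocols. The authors deposited 1 table per sample, made with RSEM per the submitters' processing notes; no version, aligner or build is named in the sources used here. Expected counts, the reads that RSEM assigns to a gene, in part where they match several, were used as deposited and rounded to whole numbers (6.26% to 6.92% of values were not whole). TPM values, normalized for length and total by the authors per the file headers, were used only for levels between genes, and FPKM was not used.

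Genes passing filterByExpr (14548, holding 99.95% to 99.97% of counts) were scaled by TMM (factors 0.9687 to 1.057) and fitted with edgeR 4.0.16 in R 4.3.3, as 1 quasi-likelihood model over 15 libraries with the group as its term (common dispersion 0.0369). A gene was called at a Benjamini-Hochberg adjusted p under 0.05 over all genes tested. Replicate numbers were tested with group and number as terms. Standard errors were derived from the log2 fold change and F. Totals of 22104066 to 49145873 leave at least 511 counts for each of the 36 genes in every library. Pairing was checked by correlating, gene by gene, how libraries of 1 number departed from their group's mean. All 3 correlations were above 0.1 in 5 of 7 comparisons (lowest 0.181 to 0.358); the lowest were -0.027 for Het DDX41 and 0.068 for Het R525H against Het empty. Alternatives were DESeq2 1.42.0, RLE scaling, no filter, the replicate block and left-out libraries. The fits were also run on simulated data with known changes. For Het R525H minus Het empty, edgeR recovered 65% of 100 genes changed by a factor of 1.5. It recovered 97% of 100 genes changed by a factor of 2, with 12 false calls. For number 3 minus the mean of numbers 1 and 2 the shares were 91% and 99%, with 9 false calls. Recovery in the real libraries was not tested.

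The 36 genes, the other lists and the split by replicate number were chosen with earlier results of these data known. Genes were named by a rule: all 36, with values per library for up to 12 called genes or else the 6 with the smallest p of a comparison, at most 4 called genes of each other list, and Ddx41 and Myc. Marker genes at 0, Kit, Ltf, Rpl5, Rpl11 and Trp53 were named outside it, after their values were seen.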

Additional observations from a re-analysis of the deposited data

How the results depend on the processing

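The 7 comparisons between groups kept 0 called genes of 36 with DESeq2, RLE scaling, no filter, the replicate block, without the 5 libraries numbered 3 and without any 1 library. Without the libraries numbered 3, 3.46% of all genes were called lower and 3.94% higher in Het empty minus WT empty. In the other comparisons it was at most 0.153% in either direction. Shares of all genes in these comparisons with DESeq2, RLE scaling, no filter or 1 library left out are not given here. Against numbers 1 and 2, the libraries numbered 3 were lower in 21 to 34 genes when 1 library was left out (21 without Het DDX41 3, 34 without Het empty 3), with a median of -0.36 to -0.21; of all genes 14.7% to 24.9% were then lower. Without Het DDX41 3 and Het G173R 3, 10 fell and 1 rose; with Het empty and WT empty alone 6 fell, and with Het R525H added 7 fell and 1 rose, against 7.29% and 11.4% of all genes. The test over 5 groups called 0 genes with edgeR, 1 with DESeq2 and 1 with the replicate block, which changed no other call of the 36 genes between groups. The cause of these shifts was not tested, and the last fits also hold fewer libraries.

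With 1 library left out, log2 values of Het G173R minus Het empty ran over Nhp2 -0.34 to 0.08, Nob1 -0.15 to 0.03, Nop2 -0.26 to 0.05, Nop56 -0.19 to 0.06, Rrp1b -0.20 to 0.05, thus reaching the other side of 0 or 0 itself. With 1 library left out, log2 values of Het DDX41 minus Het empty ran over Noc4l -0.29 to 0.03, Nop56 -0.23 to 0.04, Polr1a -0.23 to 0.01, Tcof1 -0.31 to 0.00, thus reaching the other side of 0 or 0 itself. With 1 library left out, log2 values of Het G173R minus Het DDX41 ran over Nop2 -0.25 to 0.07, Pes1 -0.15 to 0.01, Rrp1b -0.23 to 0.02, Rrs1 -0.09 to 0.33, Utp18 -0.22 to 0.09, thus reaching the other side of 0 or 0 itself. Without the 5 libraries numbered 3 the sign turned, or the value reached 0, in Het G173R minus Het empty for Nhp2 0.10, Nop14 0.01, Nop2 0.02, Nop56 0.04, Rrp1b 0.03, and in Het DDX41 minus Het empty for Noc4l 0.01, Nop14 0.04, Nop56 0.02, and in Het G173R minus Het DDX41 for Utp18 0.00. Without Het DDX41 3 and Het G173R 3 the sign turned, or the value reached 0, in Het G173R minus Het empty for Nhp2 0.08, Nob1 0.03, Nop2 0.05, Nop56 0.06, Rrp1b 0.04, and in Het DDX41 minus Het empty for Noc4l 0.03, Nop56 0.04, Polr1a 0.01, Tcof1 0.00, and in Het G173R minus Het DDX41 for Utp18 0.01. None of these genes was called in either fit. The cause was not tested.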
